A study of Mus musculus with 2 samples.

Results

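The 10 genes described here carry the best known growth signals of the regenerating liver: hepatocyte growth factor and its receptor (Hgf, Met), receptors and ligands of the epidermal growth factor family (Egfr, Erbb3, Tgfa, Hbegf, Btc, Areg), and an insulin-like growth factor binding protein with the main receptor of those factors (Igfbp1, Igf1r). They were picked by gene symbol, and all 10 were found among the 27998 genes of the deposited tables. RNA was counted nucleus by nucleus in livers of 12-week C57BL/6 mice, 48 h after partial hepatectomy, an operation that removes part of the liver and sets off regrowth of the rest. The libraries were 1 HKO library from Sox9HKO mice and 1 WT library from Sox9f/f mice, whose Sox9 gene is flanked by loxP sites. The operation was common to both, so no unoperated liver stands beside them, and the labels used here give neither the Cre driver behind HKO nor the number of mice behind a library. With 1 library a group no test between HKO and WT was possible: every interval below is a 95% interval of counting error, and how far 2 livers of 1 genotype differ is not covered by it.

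HGF is made as an inactive precursor, mainly by hepatic stellate cells and also by liver endothelial cells, and is cut by proteases before it can bind Met, its receptor tyrosine kinase on hepatocytes. Transforming growth factor alpha, heparin-binding EGF, betacellulin and amphiregulin are made as membrane proteins, are shed by metalloproteases and bind the EGF receptor, which pairs with other members of its family such as ErbB3. IGF-binding protein 1 is secreted by hepatocytes, is strongly induced in liver after partial hepatectomy in rodents, is repressed by insulin through forkhead factors, and binds IGF-1 and so limits or prolongs its action on the type 1 IGF receptor, which adult hepatocytes hold at very low levels.

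Positions on the mouse genome are those of GENCODE vM21 (GRCm38). Hgf lies at chr5:16553495-16620152 on the plus strand, Met at chr6:17463800-17573980 on the plus strand, Egfr at chr11:16752203-16918158 on the plus strand, Erbb3 at chr10:128567523-128589652 on the minus strand, Tgfa at chr6:86195223-86275719 on the plus strand, Btc at chr5:91357261-91402994 on the minus strand, Areg at chr5:91139599-91148432 on the plus strand, Igfbp1 at chr11:7197782-7202546 on the plus strand and Igf1r at chr7:67952827-68233668 on the plus strand. Egfros, an antisense RNA, lies on the other strand within Egfr. The sources used here do not give whether counting used strand, so reads of Egfr and Egfros cannot be told apart. Levels are given as CPM, the gene's molecule count scaled to 1000000 molecules of the class. In hepatocyte-like nuclei Egfros was at 339 CPM in HKO against 376 CPM in WT.

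The HKO library held 14912 barcodes with 61123904 unique molecular identifiers (UMIs, 1 per captured RNA molecule) and the WT library 14701 barcodes with 64609301 UMIs. The median depth was 3286 UMIs in HKO, against 3430 in WT, but 3855 of the HKO nuclei used and 286 of the WT nuclei used had under 2000. Clusters were named from marker genes, which gave 8672 HKO and 10927 WT hepatocyte-like nuclei, 2350 HKO and 1113 WT endothelial-like, 1946 HKO and 1085 WT macrophage-like, 1171 HKO and 639 WT stellate-like, 285 HKO and 120 WT T/NK-like and 122 HKO and 30 WT cholangiocyte-like nuclei. The libraries fell into separate clusters, so that nearly all hepatocyte-like nuclei of HKO lay in clusters 1, 9 and 12, and all of those of WT in clusters 0, 4 and 8. Hepatocyte RNA was found in every class. The median of 15 hepatocyte markers in endothelial-like nuclei was 87.8% of its hepatocyte-like level in HKO, against 93.8% in WT, and in stellate-like nuclei it was 79.4% in HKO and 90.2% in WT. The level of a hepatocyte gene in another class is therefore set beside that of these markers.

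Hgf was a stellate-like gene in both libraries. It reached 757 CPM (733 to 783, 3578 UMIs) in HKO against 826 CPM (793 to 860, 2359 UMIs) in WT stellate-like nuclei. Endothelial-like nuclei came next, with 144 CPM (136 to 152) in HKO against 115 CPM (106 to 124) in WT. Macrophage-like nuclei held 50.02 CPM in HKO against 36.1 CPM in WT, T/NK-like nuclei 42.5 CPM in HKO against 43.3 CPM in WT, and hepatocyte-like nuclei 25.3 CPM in HKO against 25.2 CPM in WT. The intervals of stellate-like, endothelial-like and hepatocyte-like nuclei lay apart in each library, while those of macrophage-like and T/NK-like nuclei overlapped. Stellate-like nuclei held 57.4% of all Hgf UMIs in HKO (56.1 to 58.6) and 53.0% in WT (51.5 to 54.5).

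The endothelial-like Hgf level stood above the stellate RNA found there. It was 19.0% of the stellate-like level in HKO and 13.9% in WT, where the median stellate marker was at 3.46% in HKO and 5.58% in WT, and it was above all 13 stellate markers in HKO and 11 of 13 in WT. In hepatocyte-like nuclei the Hgf level was 3.34% of the stellate-like level in HKO and 3.05% in WT, within the range of the stellate markers there, whose median was 2.72% in HKO and 6.35% in WT. After thinning each nucleus to 2000 UMIs, Hgf was seen in 66.4% (62.7 to 69.9) of HKO and 68.3% (64.5 to 71.9) of WT stellate-like nuclei, in 22.9% of HKO and 22.8% of WT endothelial-like nuclei, and among hepatocyte-like nuclei in 5.09% of HKO and 5.69% of WT ones. Without thinning the shares were 78.7% in HKO and 83.3% in WT stellate-like nuclei, 35.7% in HKO and 37.0% in WT endothelial-like nuclei, and 10.4% in HKO and 9.89% in WT hepatocyte-like nuclei.

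**Figure D1:**
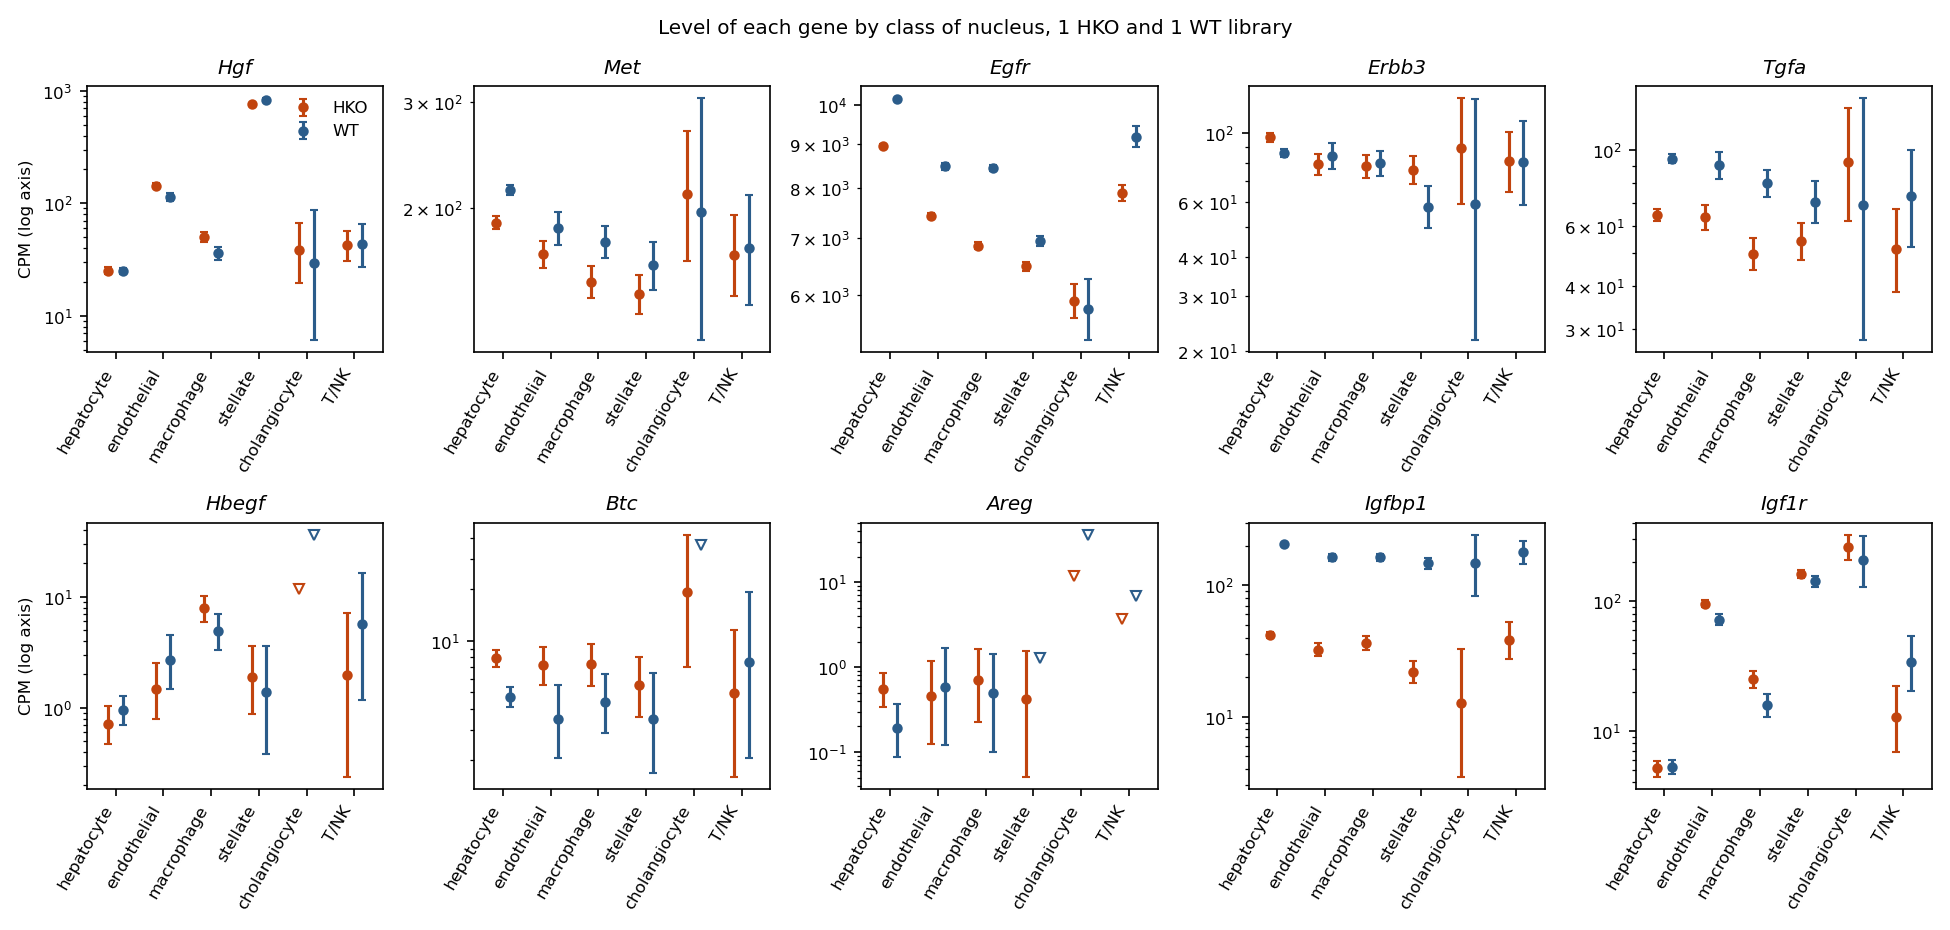
Level of each of the 10 genes in 6 classes of nuclei, as CPM on log axes that differ between panels, HKO in orange left of WT in blue. Bars are 95% Poisson intervals, and an open triangle marks the upper limit where no UMI was counted: Hgf peaks in stellate-like nuclei at 757 CPM in HKO against 826 CPM in WT, and Igf1r is lowest in hepatocyte-like nuclei.

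The stellate-like Hgf level moved with the depth of the nuclei. The ratio of the class sums, HKO over WT, was 0.917 (0.870 to 0.966). In stellate-like nuclei with 2000 to under 4000 UMIs, Hgf stood at 1320 CPM (1256 to 1387, 438 nuclei) in HKO against 1303 CPM (1237 to 1372, 414 nuclei) in WT. In those with at least 4000 UMIs it stood at 367 CPM (345 to 390, 258 nuclei) in HKO against 502 CPM (469 to 536, 216 nuclei) in WT. Counted per nucleus, Hgf gave 3.63 UMIs in HKO and 3.55 in WT in the first range and 3.94 in HKO and 3.98 in WT in the second, so the nuclei of a given range held like numbers of Hgf molecules. The 475 HKO stellate-like nuclei under 2000 UMIs held 2.04 Hgf UMIs each, and WT had 9 such nuclei. Relative to hepatocyte-like nuclei, hepatocyte markers summed to 86.8% in HKO and 83.6% in WT in the deep nuclei, against 69.8% in HKO and 101% in WT in those of 2000 to under 4000 UMIs. Their part in the Hgf levels was not tested.

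**Figure D2:**
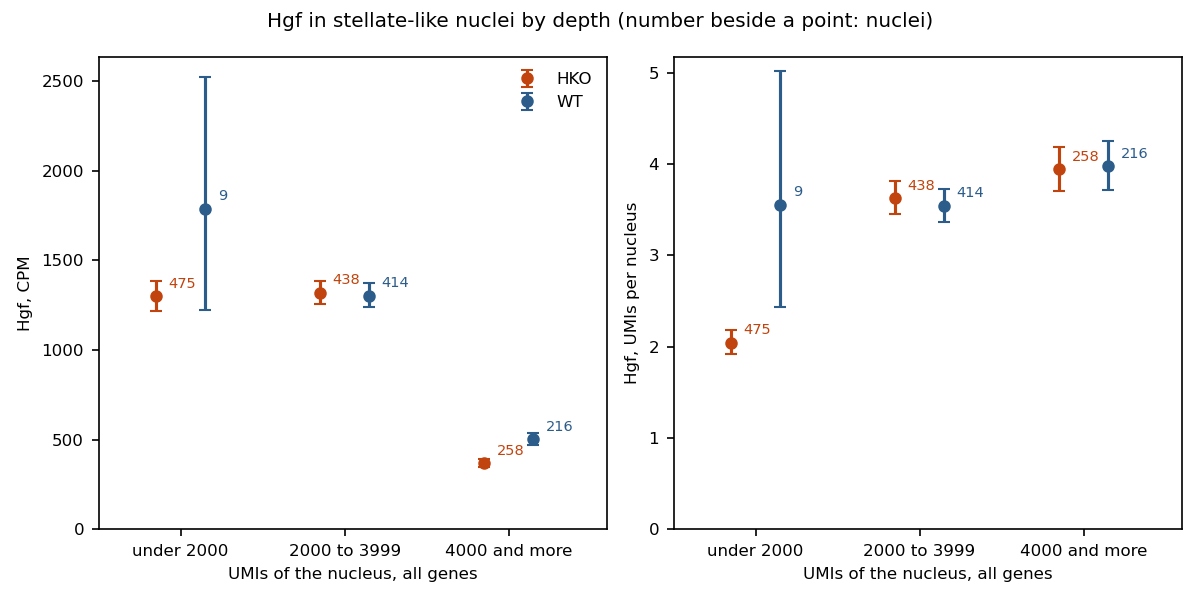
Hgf in stellate-like nuclei by the UMIs of the nucleus, as CPM on the left and as UMIs per nucleus on the right, HKO in orange left of WT in blue, with 95% Poisson intervals and the number of nuclei beside each point. In both libraries CPM is lower in nuclei of 4000 UMIs and more, while UMIs per nucleus run from 3.55 to 3.98 in the 2 deeper ranges.

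The endothelial-like level also differed with depth. The class sum of Hgf was 1.26-fold (1.14 to 1.39) higher in HKO, but 1125 of 2350 HKO nuclei and 21 of 1113 WT nuclei were under 2000 UMIs, and the shallow HKO nuclei stood at 299 CPM. Among endothelial-like nuclei with at least 2000 UMIs, Hgf was at 106 CPM (98.3 to 114) in HKO against 114 CPM (105 to 124) in WT, a ratio of 0.925 (0.829 to 1.03). In stellate-like nuclei over the same limit the ratio was 0.800 (0.756 to 0.846).

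Met, the HGF receptor, had its level in hepatocyte-like nuclei at 189 CPM (185 to 193) in HKO against 214 CPM (210 to 218) in WT, a ratio of 0.882 (0.856 to 0.909). In HKO it stood near the hepatocyte markers, at 88.5% of the hepatocyte-like level in endothelial-like nuclei and at 75.9% in stellate-like nuclei. In WT it stood at 185 CPM (173 to 197) in endothelial-like nuclei. In WT stellate-like nuclei it stood at 160 CPM (146 to 176), where the median hepatocyte marker was at 90.2% of its hepatocyte-like level. Cholangiocyte-like nuclei had 211 CPM (163 to 268, 66 UMIs) in HKO against 197 CPM (120 to 305, 20 UMIs) in WT, within counting error of hepatocyte-like nuclei.

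Egfr, the receptor of all 4 EGF family ligands among the members, was an abundant transcript, seen in 8671 of 8672 HKO and in all 10927 WT hepatocyte-like nuclei. It was seen as widely in other classes, which hold hepatocyte RNA. These included 1170 of 1171 HKO and all 639 WT stellate-like nuclei, and all 285 HKO and 120 WT T/NK-like nuclei. The median hepatocyte-like nucleus held 33 Egfr UMIs in HKO and 34 in WT. Its level was 8966 CPM (8936 to 8996) in HKO against 10161 CPM (10132 to 10190) in WT, a ratio of 0.882 (0.879 to 0.886). Erbb3, which has little kinase activity of its own and signals through its partners, stood at 96.9 CPM (93.8 to 100) in HKO against 86.2 CPM (83.5 to 88.9) in WT hepatocyte-like nuclei, a ratio of 1.12 (1.07 to 1.18). The log2 ratio of Erbb3, 0.168, lay beside a median of 0.177 for all genes measured in these nuclei. In stellate-like nuclei Egfr was at 72.3% of its hepatocyte-like level in HKO, above 1 of the 15 hepatocyte markers, and in no class was Egfr higher than in hepatocyte-like nuclei.

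Of the 4 ligands of the EGF receptor, Tgfa was the one seen in many hepatocyte-like nuclei. It was lower in HKO, with 64.5 CPM (62.0 to 67.2, 2457 UMIs) in HKO against 94.4 CPM (91.6 to 97.2, 4418 UMIs) in WT, a ratio of 0.684 (0.651 to 0.719). The ratio was 0.704 in endothelial-like, 0.622 in macrophage-like and 0.766 in stellate-like nuclei, all of which hold hepatocyte RNA. Btc was sparse, with 7.91 CPM (301 UMIs) in HKO against 4.68 CPM (219 UMIs) in WT hepatocyte-like nuclei, 1.69-fold (1.42 to 2.02) higher in HKO, and like ratios of 2.07 and 1.66 stood in endothelial-like and macrophage-like nuclei. Areg gave 21 UMIs in 8672 HKO and 9 UMIs in 10927 WT hepatocyte-like nuclei, and 0 UMIs in the 639 WT stellate-like nuclei, which allows up to 1.05 CPM there.

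Hbegf was a macrophage-like gene at a low level. Macrophage-like nuclei had 7.87 CPM (5.94 to 10.2, 56 UMIs) in HKO against 4.90 CPM (3.307 to 6.998, 30 UMIs) in WT, and hepatocyte-like nuclei had 0.709 CPM (27 UMIs) in HKO against 0.961 CPM (45 UMIs) in WT. The macrophage-like intervals lay above the hepatocyte-like ones in both libraries, and the HKO over WT ratio in macrophage-like nuclei was 1.61 (1.01 to 2.59). Among macrophage-like nuclei with at least 2000 UMIs, which leaves out 861 in HKO and 18 in WT, it was 1.44 (0.876 to 2.38), an interval that includes 1. In both libraries the macrophage-like interval overlapped those of T/NK-like, cholangiocyte-like, B-like and dendritic-like nuclei, where 3 UMIs or fewer were counted in each, and in WT also those of endothelial-like and stellate-like nuclei.

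Igf1r, the type 1 IGF receptor, was low in hepatocyte-like nuclei and higher in the other named classes, except that WT B-like nuclei held too few UMIs to tell. It had 5.12 CPM (4.43 to 5.89, 195 UMIs) in HKO against 5.25 CPM (4.62 to 5.95, 246 UMIs) in WT hepatocyte-like nuclei. Cholangiocyte-like nuclei were highest, with 262 CPM (208 to 325, 82 UMIs) in HKO against 207 CPM (128 to 316, 21 UMIs) in WT. Stellate-like nuclei followed with 162 CPM (151 to 174) in HKO against 142 CPM (129 to 157) in WT, then endothelial-like nuclei with 95.5 CPM (89.2 to 102) in HKO against 71.9 CPM (64.8 to 79.6) in WT, and macrophage-like nuclei with 25.01 CPM in HKO against 15.9 CPM in WT. In WT the cholangiocyte-like and stellate-like intervals overlapped, and in HKO they lay apart. T/NK-like nuclei had 12.9 CPM (13 UMIs) in HKO against 33.9 CPM (18 UMIs) in WT. Dendritic-like nuclei had 30.3 CPM (16 UMIs) in HKO against 81.7 CPM (39.2 to 150, 10 UMIs) in WT. In WT that lay above the endothelial-like level, with overlapping intervals. B-like nuclei had 25.4 CPM (13 UMIs) in HKO against 6.87 CPM (0.174 to 38.3, 1 UMI) in WT. Among nuclei with at least 2000 UMIs, the HKO over WT ratio was 0.952 (0.836 to 1.09) in stellate-like and 0.964 (0.839 to 1.11) in endothelial-like nuclei, where the sums over all nuclei gave 1.14 and 1.33. Thinned to 2000 UMIs, Igf1r was seen in 30.7% of HKO and 27.1% of WT stellate-like nuclei and among hepatocyte-like nuclei in 0.911% of HKO and 1.26% of WT ones. The unthinned shares were 43.1% in HKO and 42.4% in WT stellate-like nuclei and 2.16% in HKO and 2.17% in WT hepatocyte-like nuclei.

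Set against hepatocyte-like nuclei, 3 of the 10 members were at least 1.5-fold higher in another class in both libraries: Hgf, Hbegf and Igf1r. Only classes with at least 100 nuclei in each library were read, so cholangiocyte-like, B-like and dendritic-like nuclei were left out. Over all genes with a mean of 10 CPM across classes, 15.2% of 9098 met that rule, and Hgf and Igf1r were 2 of the 7 members with such a mean.

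Igfbp1 was the member that differed most between the libraries. Its level in hepatocyte-like nuclei was 41.8 CPM (39.8 to 43.9, 1592 UMIs) in HKO against 208 CPM (204 to 212, 9723 UMIs) in WT, a ratio of 0.201 (0.191 to 0.212). Thinned to 2000 UMIs, it was seen among hepatocyte-like nuclei in 7.68% (7.09 to 8.30) of HKO and 32.2% (31.3 to 33.0) of WT ones, and unthinned in 15.4% of HKO and 51.1% of WT nuclei. In stellate-like nuclei, where it is not known to be made, the thinned shares were 5.17% in HKO and 21.0% in WT and the unthinned ones 7.77% in HKO and 37.1% in WT. The median depth of stellate-like nuclei was 2303 UMIs in HKO against 3071 in WT, and that of hepatocyte-like nuclei 3912 UMIs in HKO against 3527 in WT. Of the 6 members with a mean of at least 10 CPM in hepatocyte-like nuclei, Igfbp1 was the 1 with a log2 ratio of HKO over WT of -1 or less (-2.30), and no member reached 1. Over all 8413 genes so measured, 4.72% lay at -1 or below and 3.04% at 1 or above, and 44 genes had a lower ratio than Igfbp1. The other 5 members lay between -0.54 for Tgfa and 0.17 for Erbb3, and the median of the 6 was -0.18 beside 0.18 for all genes.

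Hepatocyte markers as a group were also lower in HKO. Their sum was 17531 CPM in HKO against 34012 CPM in WT hepatocyte-like nuclei, 8 of 15 had a log2 ratio of -1 or less, their median was -1.18, and 1 of the 15 was below Igfbp1. The median share of mitochondrial UMIs was 0.0743% in HKO and 0.298% in WT hepatocyte-like nuclei. In nuclei under 0.1% of such UMIs, a limit chosen after the data were seen, Igfbp1 stood at 39.5 CPM in 5193 HKO nuclei and 222 CPM in 760 WT nuclei, a log2 ratio of -2.48. In hepatocyte-like nuclei of 2000 to under 4000 UMIs it stood at 45.4 CPM in HKO against 193 CPM in WT, and in those of at least 4000 UMIs at 39.8 CPM in HKO against 217 CPM in WT. Under that limit the median share of mitochondrial UMIs was still lower in HKO, 0.0401% in HKO against 0.0779% in WT.

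**Figure D3:**
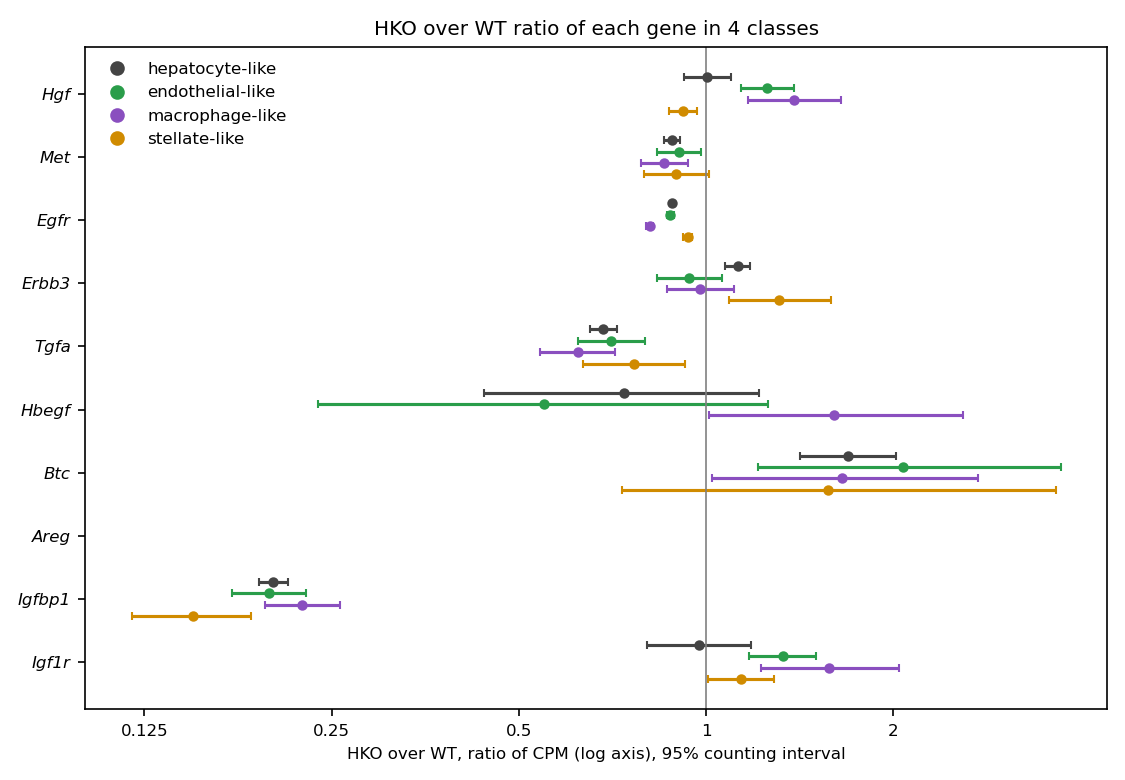
Ratio of HKO over WT CPM for each gene in 4 classes, on a log axis with 95% counting intervals; genes with fewer than 10 UMIs in either library of a class are not drawn, which leaves Areg blank. Igfbp1 stands near 0.201 in hepatocyte-like nuclei and between 0.149 and 0.224 in the other classes, which hold hepatocyte RNA, and Tgfa is below 1 in all 4.

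The Igfbp1 promoter is shown because the gene is the member with the large difference and its upstream region holds a short motif known for it, CAAAACA, the core bound by forkhead factors and named for the insulin response of this gene. The sequence is from RefSeq (GRCm38.p6), chr11:7197537-7197786 on the plus strand, with the motif in capitals.
Igfbp1 promoter: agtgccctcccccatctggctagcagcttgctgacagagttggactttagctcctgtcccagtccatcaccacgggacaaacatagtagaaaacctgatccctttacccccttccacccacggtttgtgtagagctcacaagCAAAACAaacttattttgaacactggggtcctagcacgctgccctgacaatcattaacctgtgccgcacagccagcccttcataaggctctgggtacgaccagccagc
The match lies 108 to 102 bases before the RefSeq start of the gene. CAAAACA, read on both strands, was present in 5.56% of 32851 promoters of this length. ACGTG, the core of hypoxia response elements, and TGTTCT, part of the glucocorticoid response element, were not found in this window, and they were present in 16.6% and 16.1% of promoters. A match is a run of letters and not a bound site.

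Of the 6 members measured by zone, Igfbp1 had the largest fold along the liver lobule in both libraries. Hepatocyte-like nuclei were ranked by 18 pericentral genes (near the central vein, such as Glul) minus 18 periportal genes (near the portal tract, such as Hal), none of them a member, and cut into 3 equal parts within each library, called the pericentral, middle and periportal zones. Glul stood at 356 CPM in the pericentral and 26.1 CPM in the periportal zone in HKO, and at 581 and 60.1 CPM in WT. Igfbp1 stood at 31.1, 40.9 and 53.9 CPM in the periportal, the middle and the pericentral zone of HKO, and at 166, 215 and 245 CPM in those of WT. Its pericentral level was 1.73-fold (1.53 to 1.96) the periportal one in HKO and 1.47-fold (1.40 to 1.55) in WT. When endothelial-like nuclei, which hold hepatocyte RNA, were cut by the same score, the Igfbp1 folds were 1.15 (0.861 to 1.53) in HKO and 1.26 (1.07 to 1.48) in WT. The cluster of HKO nuclei led by pericentral genes (cluster 9, 659 nuclei) had 64.2 CPM of Igfbp1 against 40.4 CPM in cluster 1 (7499 nuclei), and in WT cluster 4 (1635 nuclei) had 255 CPM against 199 CPM in cluster 0 (8220 nuclei). Near a cut the zone of a nucleus is loose: 668 HKO and 732 WT nuclei lay within 0.1 SD of the lower one.

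The receptors differed less across the lobule than Igfbp1 did. Egfr was lower in the pericentral zone, 8834 CPM against 9200 CPM in the periportal zone in HKO (0.960-fold, 0.953 to 0.968) and 9634 CPM against 10805 CPM in WT (0.892-fold, 0.885 to 0.898). In endothelial-like nuclei cut by the same score the Egfr folds were 0.886 in HKO and 0.864 in WT. The periportal zone was also the deeper one there, with a median of 2940 UMIs against 1879 in the pericentral zone in HKO and 4278 against 3042 in WT, and the part of depth was not tested. Met was 0.858-fold (0.811 to 0.908) in HKO and 0.967-fold (0.922 to 1.01) in WT. Erbb3 was 1.14-fold (1.05 to 1.23) in HKO and 0.970-fold (0.900 to 1.05) in WT. Tgfa was 1.01-fold (0.918 to 1.12) in HKO and 1.03-fold (0.957 to 1.11) in WT. Btc leaned periportal, with pericentral folds of 0.833 (0.620 to 1.12) in HKO and 0.697 (0.494 to 0.977) in WT. With 1.5-fold in both libraries as the limit, 0 members were called higher and 0 lower in the pericentral zone, where 1.34% and 1.32% of all 7933 genes were. Igfbp1 met the limit in HKO and fell short of it in WT.

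**Figure D4:**
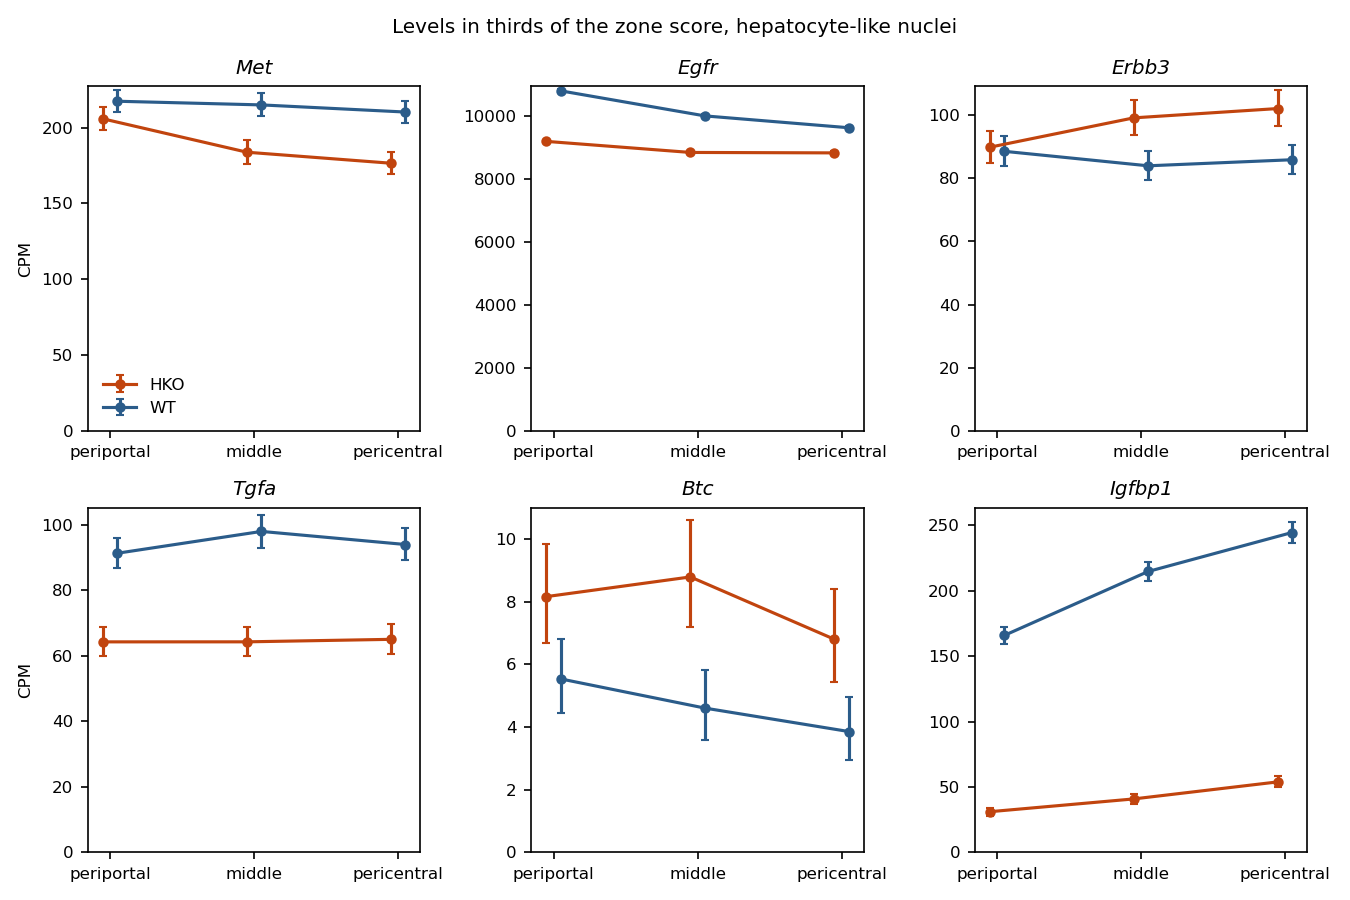
Levels of 6 members in hepatocyte-like nuclei cut into 3 equal parts by the zone score, as CPM on axes that start at 0, with 95% Poisson intervals, HKO in orange and WT in blue. Igfbp1 climbs towards the pericentral zone in both libraries, 31.1 to 53.9 CPM in HKO and 166 to 245 CPM in WT. Met, Egfr, Erbb3 and Tgfa differ less between zones.

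The Igfbp1 difference was present in every zone. Igfbp1 had an HKO over WT ratio of 0.188 (0.169 to 0.208) in the periportal, 0.190 (0.173 to 0.209) in the middle and 0.220 (0.203 to 0.239) in the pericentral zone. Tgfa had ratios of 0.704, 0.656 and 0.692 in the same order. Egfr had ratios of 0.851, 0.884 and 0.917. Erbb3 had ratios of 1.01 (0.939 to 1.10), 1.18 (1.09 to 1.28) and 1.19 (1.10 to 1.28), so its interval lay above 1 in the middle and in the pericentral zone. All of these are ratios of CPM. Over the whole class the Erbb3 log2 ratio was 0.168 by CPM. It was 0.040 and 0.046 under the 2 other scalings described below.

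Cell cycle state was read from transcripts after thinning to 2000 UMIs, which left out 987 HKO and 200 WT hepatocyte-like nuclei. Nuclei with at least 3 UMIs of a list of G2 and mitosis genes made up 660 of 7685 (8.59%) in HKO and 2230 of 10727 (20.8%) in WT, and those with at least 3 UMIs of S phase genes alone 1074 (14.0%) in HKO and 2616 (24.4%) in WT. These states are calls on transcripts, stray RNA included. Of the nuclei called G2 and mitosis, 185 in HKO and 788 in WT had exactly 3 UMIs of that list. The hepatocyte name was weaker in the clusters led by cell cycle genes, cluster 8 (1072 WT nuclei) and cluster 12 (508 HKO nuclei). Each had 5 of 15 hepatocyte markers above the other classes, against 15 in cluster 0 and 14 in cluster 1.

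Both EGF family receptors were lower in hepatocyte-like nuclei in G2 and mitosis. Egfr stood at 7592 CPM against 9212 CPM in non-cycling nuclei in HKO (0.824-fold, 0.813 to 0.835) and at 8988 CPM against 10565 CPM in WT (0.851-fold, 0.844 to 0.857). Erbb3 stood at 84.3 against 98.8 CPM in HKO (0.853-fold, 0.747 to 0.971) and at 74.1 against 91.0 CPM in WT (0.814-fold, 0.747 to 0.886). The drop was not seen in hepatocyte-like nuclei alone. Macrophage-like nuclei in G2 and mitosis had Egfr folds of 0.7499 (0.731 to 0.769) in HKO and 0.806 (0.790 to 0.822) in WT and Erbb3 folds of 0.748 (0.584 to 0.949) in HKO and 0.790 (0.640 to 0.974) in WT. Stellate-like nuclei had Egfr folds of 0.678 (0.653 to 0.703) in HKO and 0.938 (0.906 to 0.971) in WT. Endothelial-like nuclei had 0.955 (0.930 to 0.981) in HKO and 0.957 (0.935 to 0.979) in WT. These folds moved with depth. In nuclei of 2000 to under 4000 UMIs the stellate-like folds were 0.766 in HKO and 0.955 (0.896 to 1.02) in WT. In those of at least 4000 UMIs they were 0.768 in HKO and 0.883 in WT. The endothelial-like folds were 0.823 in HKO and 0.868 in WT in the first range. In the second they were 0.994 (0.964 to 1.02) in HKO and 0.943 (0.919 to 0.968) in WT. In S phase hepatocyte-like nuclei Egfr was 0.971-fold in HKO and 0.979-fold in WT. Met was 0.957-fold (0.875 to 1.04) in HKO and 1.002-fold (0.952 to 1.05) in WT in G2 and mitosis. Hepatocyte markers in hepatocyte-like nuclei in G2 and mitosis summed to 90.5% of the whole class in HKO and 97.7% in WT. In macrophage-like nuclei the markers stood at 77.0% of the hepatocyte-like level in G2 and mitosis and 91.4% in non-cycling nuclei in HKO. In WT they stood at 84.7% and 84.3%. In endothelial-like nuclei they stood at 84.5% and 92.6% in HKO and at 91.7% and 97.1% in WT. In stellate-like nuclei they stood at 67.8% and 84.9% in HKO and at 86.6% and 94.0% in WT. The part of this RNA in the receptor folds was not tested.

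Tgfa was higher in G2 and mitosis in HKO hepatocyte-like nuclei, and its WT interval included 1. It stood at 85.6 CPM (75.5 to 96.8) in G2 and mitosis and 62.0 CPM (59.1 to 64.9) in non-cycling HKO nuclei, 1.38-fold (1.21 to 1.58), and at 97.3 CPM (91.2 to 104) and 93.4 CPM (89.7 to 97.3) in WT nuclei, 1.04-fold (0.965 to 1.12). The HKO over WT ratio of Tgfa was accordingly 0.880 (0.764 to 1.01) in G2 and mitosis and 0.664 (0.624 to 0.706) in non-cycling nuclei. Btc followed the same course on few counts, with 12.99 CPM (39 UMIs) against 7.66 CPM in HKO, 1.70-fold (1.17 to 2.39), and 5.204 CPM (50 UMIs) against 4.89 CPM in WT, 1.06-fold (0.751 to 1.49). In endothelial-like nuclei the Tgfa folds were 1.03 (0.751 to 1.39) in HKO and 1.25 (1.006 to 1.56) in WT, so there the WT interval lay above 1. Whether these folds differ between HKO and WT livers cannot be tested with 1 library each.

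Igfbp1 differed little between states, and its WT interval in G2 and mitosis lay below 1. In G2 and mitosis it was 0.912-fold (0.745 to 1.11) the non-cycling level in HKO and 0.889-fold (0.843 to 0.938) in WT, and in S phase 1.07-fold in HKO and 0.983-fold in WT. The ratio of HKO over WT was 0.198 in G2 and mitosis, 0.211 in S phase and 0.194 in non-cycling nuclei, about as low in each. Of the 6 members measured, none passed 1.5-fold in both libraries in either state. The count was 0 up and 0 down in G2 and mitosis, where 5.24% and 0.112% of 8067 genes passed, and 0 up and 0 down in S phase, where 1.11% and 0% of 7912 genes passed.

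**Figure D5:**
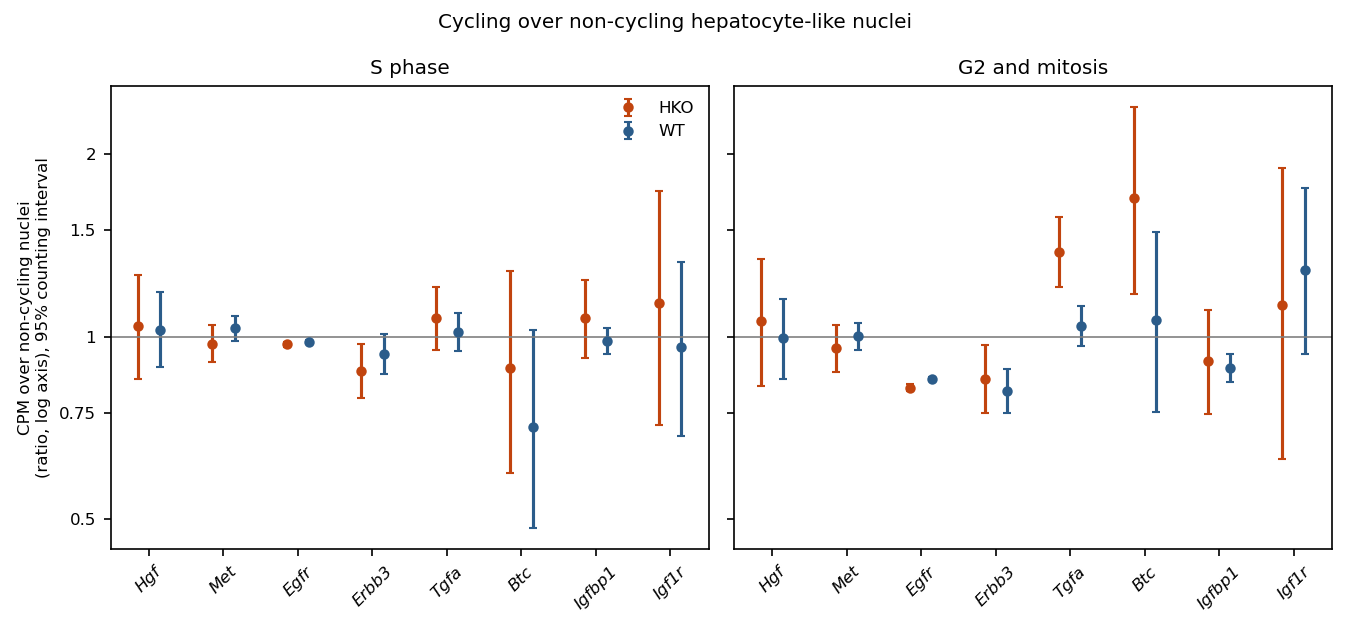
Ratio of the level in S phase (left) and in G2 and mitosis (right) to non-cycling hepatocyte-like nuclei, on a log axis with 95% counting intervals, HKO in orange left of WT in blue. In G2 and mitosis Egfr and Erbb3 lie below 1 in both libraries, at 0.824 and 0.853 in HKO and 0.851 and 0.814 in WT, and Tgfa lies at 1.38 in HKO and 1.04 in WT.

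In stellate-like nuclei, cycling state and Hgf were read together. Hgf stood at 960 CPM in G2 and mitosis (164 nuclei) and 581 CPM in non-cycling nuclei (405) in HKO, 1.65-fold (1.503 to 1.81), and at 751 CPM (180 nuclei) and 925 CPM (304) in WT, 0.813-fold (0.736 to 0.897). Within a range of depth the libraries did not go opposite ways. In nuclei of 2000 to under 4000 UMIs the folds were 0.934 (0.833 to 1.05) in HKO and 0.704 (0.617 to 0.802) in WT, and in nuclei of at least 4000 UMIs they were 1.82 (1.54 to 2.14) in HKO and 1.24 (1.05 to 1.45) in WT. Igf1r was 1.84-fold (1.498 to 2.25) in G2 and mitosis in HKO and 1.26-fold (1.004 to 1.58) in WT stellate-like nuclei. Split by depth, every stellate-like Igf1r interval in G2 and mitosis included 1, with all folds above 1. The folds were 1.25 (0.969 to 1.60) in HKO and 1.31 (0.967 to 1.77) in WT for 2000 to under 4000 UMIs. For 4000 UMIs and more they were 1.40 (0.929 to 2.06) in HKO and 1.35 (0.946 to 1.94) in WT. Hepatocyte markers in these stellate-like nuclei summed to 67.8% of the hepatocyte-like level in G2 and mitosis and 84.9% in non-cycling nuclei in HKO, and to 86.6% and 94.0% in WT; their part in these folds was not tested.

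At the clustering resolution used, 0.5, the WT library held a cluster led by mitochondrial transcripts, left unnamed, with 531 nuclei beside 26 in HKO. In WT its level of Alb, the gene of serum albumin, was 19434 CPM against 6479 CPM in hepatocyte-like nuclei, and the members followed another order. Egfr was at 5087 CPM against 10161 CPM (0.501-fold, 0.490 to 0.511), Tgfa was 0.421-fold (0.325 to 0.535), Erbb3 0.578-fold (0.460 to 0.717) and Met 0.633-fold (0.553 to 0.722). Igfbp1 was 0.793-fold (0.702 to 0.894), the least lowered of these 5 hepatocyte members. At a resolution of 1, 859 HKO and 510 WT nuclei were unnamed, 855 of the HKO ones in a cluster led by mitochondrial transcripts. HKO hepatocyte-like nuclei then numbered 7831 in place of 8672. The median share of mitochondrial UMIs in the nuclei then unnamed was 0.508% in HKO against 4.96% in WT.

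The genes around the members were taken from 8 lists, members included, and read in hepatocyte-like nuclei, where all genes had a median log2 ratio of 0.18, with 3.04% of them at 1 or above and 4.72% at -1 or below. Of 7 measured receptors, 0 passed a log2 ratio of 1 in size, and their median was -0.18. ErbB4 (Erbb4), the receptor for neuregulins, stood in hepatocyte-like nuclei at 214 CPM in HKO against 327 CPM in WT, and at 1731 CPM in HKO against 2070 CPM in WT cholangiocyte-like nuclei, named after its values were seen. Of 6 ligands, 2 passed upwards and 0 downwards, with a median of -0.08. Neuregulin 4 (Nrg4), a ligand of ErbB4, stood at 581 CPM in HKO against 79.6 CPM in WT hepatocyte-like nuclei, 7.30-fold (7.05 to 7.56), and neuregulin 1 (Nrg1), a ligand of ErbB3 and ErbB4, at 52.5 CPM in HKO against 23.3 CPM in WT, 2.25-fold (2.09 to 2.42). Nrg4 stood at 526 CPM in HKO against 71.7 CPM in WT endothelial-like nuclei, near its hepatocyte-like level.

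Of 7 genes that activate HGF or restrain its activation, 1 passed, downwards, and their median was -0.62. It was plasma kallikrein (Klkb1), at 13.8 CPM in HKO against 37.9 CPM in WT. Plasminogen (Plg), the precursor of plasmin, was 0.552-fold, and prothrombin (F2) 0.564-fold. Of 4 genes of ligand shedding, with a median of 0.23, 0 passed, and Adam17, the main sheddase of the EGF receptor ligands, was 1.16-fold. Of 5 IGF binding proteins and carriers, with a median of -0.80, 2 passed downwards, Igfbp1 and Igfals, the subunit that stabilises circulating IGF complexes, with 7.20 CPM in HKO against 16.6 CPM in WT. Igfbp2 was 0.571-fold. Igf1 itself stood at 1609 CPM in HKO against 1814 CPM in WT.

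Of 22 adaptors and transducers, with a median of 0.31, 1 passed, upwards: Foxo1, a forkhead factor that insulin and IGF signals drive out of the nucleus, at 518 CPM in HKO against 180 CPM in WT, 2.87-fold (2.80 to 2.95). Of 12 feedback inhibitors, 2 passed downwards and 0 upwards, and their median was -0.14. Dusp6, a phosphatase of ERK that growth factor signals induce, stood at 14.0 CPM in HKO against 58.0 CPM in WT, 0.242-fold (0.220 to 0.265), and Socs3 was 0.391-fold. Spred1 and Spred2, inhibitors of the Ras pathway, were 0.552-fold and 0.549-fold. Of 7 genes induced by fasting or low oxygen, with a median of 0.11, 1 passed in each direction. G6pc, the last step of glucose release, passed downwards at 180 CPM in HKO against 425 CPM in WT, and Ppargc1a, a coactivator raised in fasting, passed upwards at 2.15-fold.

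Genes at least 1.5-fold higher in another class than in hepatocyte-like nuclei in both libraries were counted in each list. Again only classes with at least 100 nuclei in each library were read. No minimum CPM was set, so sparse genes such as Dusp4 (stellate-like, 22 UMIs in HKO, 13 in WT) were included. The 15.2% of all genes given above needed a mean of 10 CPM, so it is not a like measure. The genes so counted were 7 of 18 feedback inhibitors, 4 of 6 genes of ligand shedding, 4 of 23 adaptors and 2 of 14 ligands. They were also 2 of 12 genes of HGF activation and its restraint and 1 of 9 receptors. Erbb4, higher in cholangiocyte-like nuclei in both libraries, was not counted because that class was left out. The last lists gave 1 of 12 IGF binding proteins and carriers and 1 of 10 genes induced by fasting or low oxygen. Examples chosen after their values were seen are Gab1, the docking protein of Met, with 274 CPM in HKO against 301 CPM in WT stellate-like nuclei and 121 CPM in HKO against 92.8 CPM in WT hepatocyte-like ones, and Igfbp7, with 294 CPM in HKO against 311 CPM in WT stellate-like nuclei.

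Across the 10 profiles of 5 classes and 2 libraries, 6606 genes were ranked by Pearson's r of log2 levels with each member. The profiles share 2 libraries and their stray hepatocyte RNA, so these are descriptions. Closest to Hgf were Zfpm2 (r = 0.993), Adamts9 and Mapt. Closest to Egfr were Igf1 (0.987), Bcar3 and Onecut2. Closest to Igfbp1 were Cyp2c50 (0.995), which is also a gene of the pericentral list, G6pc and Mbl2, and closest to Igf1r were Lrrk2 (0.983), Auts2 and Hmcn1. Met had Erc2 (0.979), Tgfa had Phldb2 (0.981) and Erbb3 had Ppm1b (0.947) at the head of their lists.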

How the data were processed

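Single-nucleus RNA was measured by 10x Genomics 3' sequencing. The tables the authors deposited hold raw UMI counts for every gene in every barcode, not normalized. The submitters' processing notes list Cell Ranger 5.0.0, STAR, Seurat 3.2.0 and the build GRCm38, with no role or order. They do not say here how introns or strand were treated. Groups follow the sample titles.

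A barcode was used if it showed 500 or more genes and less than 10% mitochondrial UMIs (14902 in HKO, 14515 in WT); 70 barcode sequences occur in both libraries. Scrublet (scanpy 1.11.5) marked 0 doublets in each, so doublets were in effect not removed. Nuclei were clustered together (2000 variable genes, 30 components, 15 neighbours, Leiden at 0.5; leidenalg 0.10.2) and named by at least 3 markers. Clusters with over 4 haemoglobin or mitochondrial genes among 10 leading genes stayed unnamed, a limit set after the data were seen.

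UMIs were summed per class and library. Each log2 ratio is that of HKO over WT CPM, 0.5 added to both, and was called where the 2 libraries averaged 10 CPM or more. Ratios and folds not given as log2 are plain quotients of CPM, without the 0.5. A call by class, zone or state needs 1.5-fold and 10 UMIs. Intervals are exact (Poisson, conditional binomial, Clopper-Pearson), at 95%, and cover counting error only; a count of 0 allows 3 UMIs. The ratio calculation was tested on simulated data. Named genes were all members, from each list the 4 other genes whose ratio was farthest from 0 or fewer, and the 3 genes most alike each member. Members and lists were chosen with earlier results of these data known. Alternatives covered filters, resolution, scaling (TMM, edgeR 4.0.16, R 4.3.3), weights, thinning, zones and limits.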

Additional observations from a re-analysis of the deposited data

Results flagged for a closer look

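Contrasts whose counting intervals lay on opposite sides of 1 in HKO and WT were looked for among members of at least 10 CPM, and 3 were found. No test of the difference was possible with 1 library per group, so the difference was not tested. Hgf in stellate-like nuclei in G2 and mitosis was 1.65-fold the non-cycling level in HKO and 0.813-fold in WT. The non-cycling arm had a median of 3432 UMIs in HKO and 2882.5 in WT and the arm in G2 and mitosis 3008 in HKO and 3192.5 in WT, and within each range of depth the folds of both libraries lay on 1 side of 1 (0.934 in HKO and 0.704 in WT at 2000 to under 4000 UMIs, 1.82 in HKO and 1.24 in WT at 4000 and more).

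Egfr in S phase was 0.974-fold the non-cycling level in HKO and 1.07-fold in WT endothelial-like nuclei, and 0.908-fold in HKO and 1.11-fold in WT stellate-like nuclei. By depth, the endothelial-like folds were 0.876 in HKO and 0.967 (0.922 to 1.01) in WT at 2000 to under 4000 UMIs. At 4000 and more they were 1.03 in HKO and 1.06 in WT. Both libraries thus lay below 1 in the first range and above 1 in the second. The WT interval of the first range included 1. The stellate-like folds were 0.987 (0.921 to 1.06) in HKO and 1.01 (0.942 to 1.08) in WT in the first range, and 0.926 (0.893 to 0.960) in HKO and 1.04 (0.998 to 1.08) in WT in the second. Relative to hepatocyte-like nuclei, Egfr stood at 82.9% in HKO and 83.5% in WT endothelial-like nuclei, and at 72.3% in HKO and 68.3% in WT stellate-like nuclei, low in the range of the 15 hepatocyte markers.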

How the results depend on the processing

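Of 88 counts of called members recomputed under alternatives, 85 kept their value and 3 moved. With the zone score cut into 5 parts in place of 3, 1 member was higher in the pericentral part in both libraries, Igfbp1; with nuclei under 3 UMIs of each cell cycle list, likewise 1, Igfbp1. With a zone score made from the share of pericentral UMIs, 1 member was lower, Hbegf, on few counts. The cause was not tested. Of 80 log2 ratios of single members, 58 moved by less than their counting interval, 22 moved by more and 0 changed the sign of a called value; Igfbp1 ranged from -2.48 to -2.21 and Tgfa from -0.68 to -0.47. Scaling by median ratios shifted log2 ratios by -0.13 and TMM by -0.12, and the sparsest members by less. Areg went from 0.603 to 0.552 by median ratios. Erbb3 went from 0.168 to 0.040 by median ratios and to 0.046 by TMM. No paired analysis was possible because each group has 1 library. Depth limits Areg and Hbegf most, and genotype, animal, library and batch cannot be told apart.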
